A study of Homo sapiens with 6 samples.

Results

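ERAP2 and 8 further genes of MHC class I antigen presentation were examined in a human neuroblastoma cell line in which ACSS2, the enzyme that makes acetyl-CoA from acetate, was targeted by RNA interference. The 9 genes are ERAP1, ERAP2, B2M, HLA-B, HLA-C, HLA-E, TAP1, TAP2 and TAPBP. They were matched by symbol, and all 9 were among the 58735 features of the deposited count table and among the 16210 features tested. These genes were chosen from earlier results of the same comparison, so their own differences are given as a description and carry no p-value. Values of 3 libraries labelled shACSS2 were set against those of 3 libraries labelled NS. Both groups were BE(2)-C cells infected with lentivirus and selected with puromycin, the shACSS2 group with a hairpin against ACSS2 and the NS group with a non-silencing hairpin. The sample titles write siACSS2 where the treatment text writes shACSS2, and 1 passage of that text names the knockdown line shNgBR. Nothing in the labels tells whether replicate libraries were grown as separate cultures. All p-values here therefore reflect only how much these libraries vary.

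MHC class I molecules show short peptides from inside the cell to CD8 T cells and natural killer cells. Peptides made by the proteasome are pumped into the endoplasmic reticulum (ER) by the TAP transporter, trimmed there by the aminopeptidases ERAP1 and ERAP2, and loaded by tapasin and its partner chaperones onto a heavy chain paired with beta-2 microglobulin. Neuroblastoma is known for low class I expression, and interferon gamma is the best known inducer of these genes.

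The libraries held 16617885 to 18133801 counts in shACSS2 cells and 17073662 to 20831599 counts in NS cells. ACSS2 itself averaged 5.32 ± 0.762 counts per 1000000 counts of the library (CPM) in shACSS2 cells and 20.5 ± 0.324 CPM in NS cells (SD, n = 3 each). Its log2 fold change, shACSS2 over NS, was -1.94 with a standard error (SE) of 0.145 (edgeR adjusted p = 1.95e-06). Across all tested genes, 1213 were called higher and 1563 lower at an adjusted p under 0.05, and the median log2 fold change was 0.0025. Among adrenergic neuroblastoma markers, PHOX2A, TH and TFAP2B had 0 counts in every library, and 3 reached 1 CPM in all libraries (GATA3, HAND2 and ISL1). MYCN, which BE(2)-C cells are known to carry in many copies, was counted 7, 15 and 18 times in shACSS2 replicates 1, 2 and 3, against 27, 40 and 35 times in the NS replicates, so the cells are called here by their labelled name only. CHGA, a neuroendocrine marker, was also lower in every shACSS2 library (5, 11 and 14 counts, against 29, 43 and 40 in NS libraries). Relative to library totals, ISL1 went the other way (279, 297 and 354 counts in shACSS2 libraries, against 210, 266 and 280 in NS libraries). All 12 adrenergic markers summed to 40.9 to 48.4 CPM in shACSS2 cells and 38.9 to 44.4 CPM in NS cells. The fibroblast marker LUM was higher in every shACSS2 library (114, 87 and 90 counts, against 39, 47 and 37 in NS libraries). The groups overlapped for COL1A1 (332, 540 and 531 counts in shACSS2 libraries, against 389, 454 and 553 in NS libraries). They also overlapped for COL3A1 and PDGFRB. The 5 fibroblast markers, COL1A1 foremost, summed to 36.8 to 46.6 CPM in shACSS2 cells and 31.9 to 38.3 CPM in NS cells, with DCN at or near 0. The part of these markers in the differences described here was not tested. A count of 0 allows up to 3 counts, or 0.0277 CPM over all 6 libraries, and covers counting error only. Within the shACSS2 group, replicate 1 stood apart: its deviation from the group correlated with the GC content of genes at a Spearman rho of -0.60 across 16201 genes, against 0.47 and 0.39 in shACSS2 replicates 2 and 3 and -0.090 to 0.11 in the NS libraries.

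The promoters of the 3 genes called higher, ERAP2, B2M and TAP1, and of HLA-B, which was not called, are shown because these genes share known routes of transcriptional control. The windows, from RefSeq on GRCh38.p14, run from 250 bases before an annotated start to the first 50 bases from it and are written 5′ to 3′ in the direction of the gene. Capitals mark matches to any of 4 short motifs, searched on both strands: the core of the interferon response element (GAAANNGAAA), a kappa B element (GGGGANNNCC), the core of the X2 element (TGACG) and the CCAAT box (CCAAT).
ERAP2, upstream start (chr5:96875734-96876033, plus strand): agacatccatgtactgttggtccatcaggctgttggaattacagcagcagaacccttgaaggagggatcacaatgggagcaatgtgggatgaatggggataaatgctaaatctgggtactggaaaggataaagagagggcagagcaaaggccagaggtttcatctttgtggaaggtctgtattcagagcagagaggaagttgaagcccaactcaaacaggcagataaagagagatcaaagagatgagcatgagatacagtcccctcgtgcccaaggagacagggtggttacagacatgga
ERAP2, downstream start (chr5:96876250-96876549, plus strand): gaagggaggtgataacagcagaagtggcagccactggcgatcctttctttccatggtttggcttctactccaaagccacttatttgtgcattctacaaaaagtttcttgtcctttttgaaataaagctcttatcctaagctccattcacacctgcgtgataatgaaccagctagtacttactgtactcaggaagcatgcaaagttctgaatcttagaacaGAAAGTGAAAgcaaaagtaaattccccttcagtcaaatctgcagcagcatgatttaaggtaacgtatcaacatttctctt
B2M (chr15:44711267-44711566, plus strand): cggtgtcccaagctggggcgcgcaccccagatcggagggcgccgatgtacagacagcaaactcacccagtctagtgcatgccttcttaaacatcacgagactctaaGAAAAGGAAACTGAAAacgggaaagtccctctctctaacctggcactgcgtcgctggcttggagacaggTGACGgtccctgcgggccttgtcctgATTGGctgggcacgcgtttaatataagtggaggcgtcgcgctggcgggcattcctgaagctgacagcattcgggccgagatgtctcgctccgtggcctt
TAP1, upstream start (chr6:32853655-32853954, minus strand): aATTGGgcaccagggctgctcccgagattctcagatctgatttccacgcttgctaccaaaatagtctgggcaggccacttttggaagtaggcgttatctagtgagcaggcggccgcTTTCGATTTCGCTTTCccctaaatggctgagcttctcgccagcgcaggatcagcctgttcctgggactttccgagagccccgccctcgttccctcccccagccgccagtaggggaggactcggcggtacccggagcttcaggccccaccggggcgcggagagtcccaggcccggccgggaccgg
HLA-B (chr6:31357130-31357429, minus strand): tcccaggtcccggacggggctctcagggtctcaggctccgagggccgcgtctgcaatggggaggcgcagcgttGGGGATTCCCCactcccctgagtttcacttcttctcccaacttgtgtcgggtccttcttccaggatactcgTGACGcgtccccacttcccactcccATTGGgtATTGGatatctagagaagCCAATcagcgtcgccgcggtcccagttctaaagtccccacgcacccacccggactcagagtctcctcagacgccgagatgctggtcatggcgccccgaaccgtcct

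The downstream ERAP2 start carried 1 match to the interferon response element core, from base -30 to base -21 counted from the start at 0, and the upstream ERAP2 window carried none of the 4 motifs. B2M carried 2 overlapping matches to that core, beginning at bases -144 and -138, with the X2 core at -75. TAP1 also carried 2 overlapping matches on the opposite strand, beginning at -134 and -128. In HLA-B, 2 kappa B matches overlapped on opposite strands at -177 and -176, the X2 core began at -106, and no interferon response element core was found in the window. Over the 11 windows of the 8 genes matched, the interferon response element core stood in 6 windows, 1 each for ERAP1, ERAP2, TAP1, TAP2, TAPBP and B2M. All 34943 promoter windows of the table gave 3.57% with the interferon response element core, 7.66% with the kappa B element, 24.5% with the X2 core and 34.6% with CCAAT. The core was present in windows of the 3 called genes and of ERAP1, TAP2 and TAPBP, which were not called. It was absent from those of HLA-B and HLA-C, also not called. Only this exact string was searched, so an interferon response element spelled otherwise would have been missed in any window. Nothing is read from this, since the calls helped to choose the genes. A match is a run of letters and no measure of binding.

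Across the 9 genes, ERAP2, B2M and TAP1 were called higher in shACSS2 cells, 0 were called lower and 6 were not called in either direction. In the background of all genes tested, 17.1% were called in either direction, 7.48% higher and 9.64% lower. The 0 called lower is edgeR's count: at an unadjusted p under 0.05 it was 1, TAPBP, and DESeq2 and limma voom each called 0 lower. The CPM values of the groups did not overlap for 5 of the 9 genes, against 36.3% of all genes tested, and the 9 genes had a median log2 fold change of 0.14. Since the genes were chosen on this comparison, nothing is read from these counts.

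**Figure D1:**
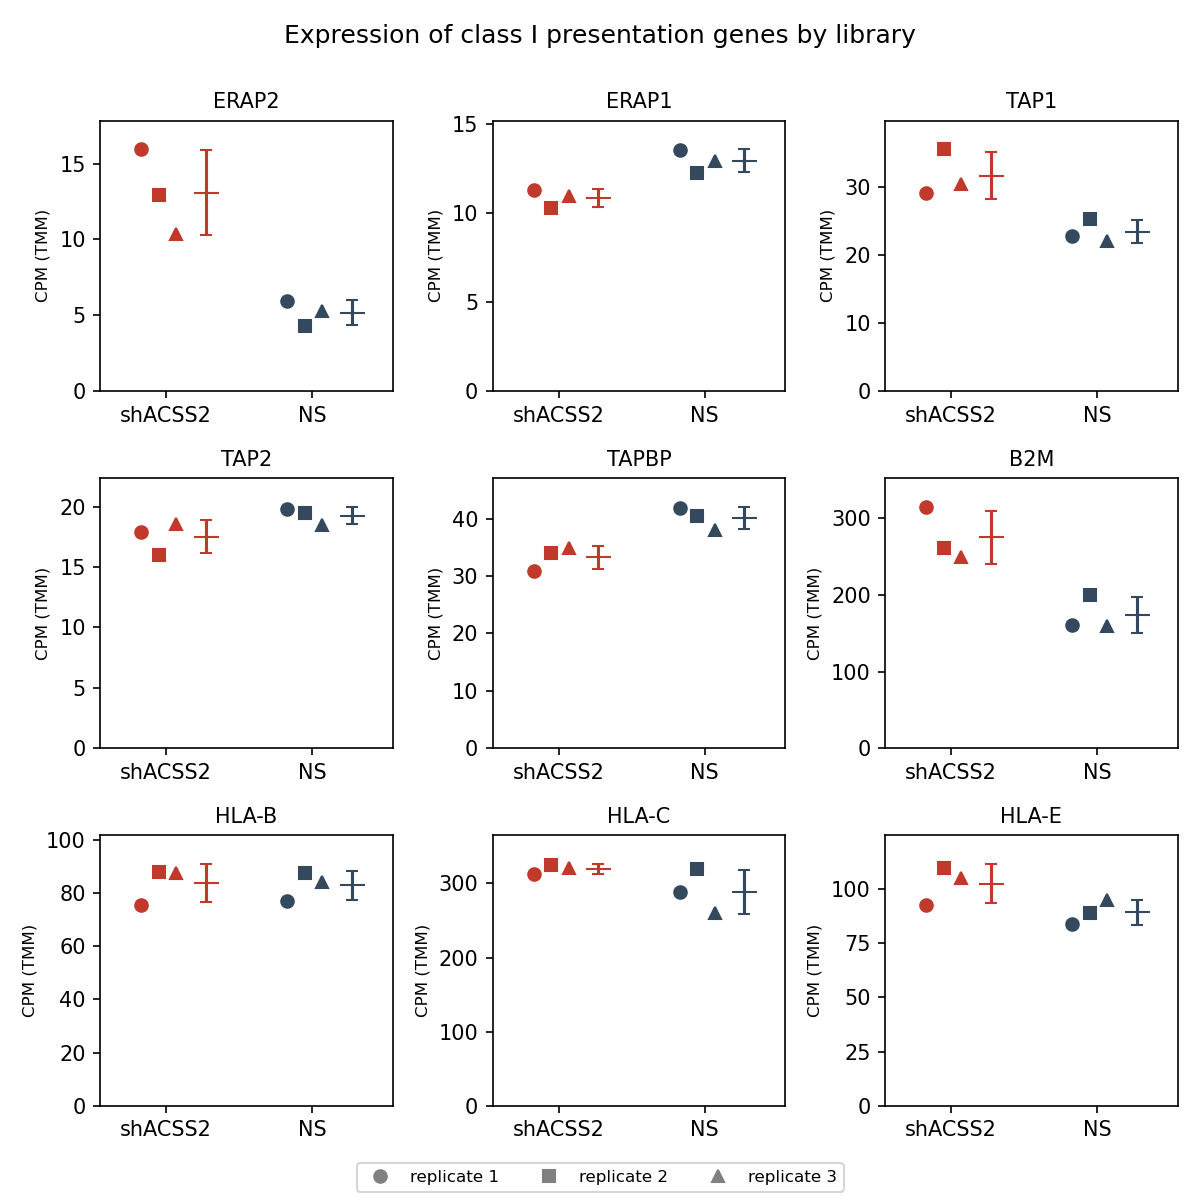
CPM (vertical axes, from 0, TMM-scaled) of the 9 class I presentation genes in each library, with shACSS2 in red and NS in dark blue. Symbols mark replicates, and bars give the mean ± SD of 3 libraries. ERAP2 lies at 10.4 to 15.9 CPM in shACSS2 cells and at 4.28 to 5.92 CPM in NS cells, whereas the HLA-B values of the groups overlap.

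ERAP2, on chromosome 5 (chr5:96875939-96919716, plus strand, GENCODE release 29 on GRCh38), had the largest difference of the 9 genes. It encodes an ER aminopeptidase that trims the amino ends of peptides to a length that fits class I molecules. It was counted 256, 212 and 185 times in shACSS2 replicates 1, 2 and 3, against 104, 81 and 114 times in NS replicates 1, 2 and 3. On the CPM scale these were 15.9, 13.0 and 10.4 in shACSS2 cells and 5.92, 4.28 and 5.26 in NS cells. Every shACSS2 library lay above every NS library, and the shACSS2 values spread more widely. The means were 13.1 ± 2.79 CPM in shACSS2 cells and 5.15 ± 0.826 CPM in NS cells, a log2 fold change of 1.34 (SE 0.185), or 2.54-fold. In bulk RNA, more cells that express a gene and more RNA per cell cannot be told apart. shACSS2 replicate 1, the library that stood apart by GC content, had the highest ERAP2 value, and without it the log2 fold change of ERAP2 was 1.18. ERAP2 transcripts are poor in GC (40.5% in the longest coding transcript). With a correction for GC and length the log2 fold change of ERAP2 was 1.40.

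ERAP1 (chr5:96760810-96808100, minus strand), the neighbouring gene for the partner aminopeptidase, did not follow ERAP2. It had 11.3, 10.3 and 10.9 CPM in shACSS2 replicates 1, 2 and 3, against 13.5, 12.3 and 12.9 CPM in NS replicates 1, 2 and 3. All shACSS2 values of ERAP1 lay below all NS values, yet the log2 fold change of -0.25 (SE 0.133) was not called. Within a library, the ratio of ERAP2 to ERAP1 counts was 1.41, 1.26 and 0.949 in shACSS2 replicates 1, 2 and 3, against 0.437, 0.349 and 0.407 in the NS replicates. This ratio, which needs no scaling between libraries, averaged 1.21 ± 0.237 in shACSS2 cells and 0.398 ± 0.0447 in NS cells, or 3.04-fold, with no overlap of the groups. ERAP1 exons share 299 bases with CAST on the opposite strand (3.76% of ERAP1 exon bases), and CAST had 2161 to 2835 counts a library. The sources used here do not give whether counting used strand, so reads of ERAP1 and CAST over that stretch cannot be told apart.

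Of 9 listed neighbours of ERAP2 on chromosome 5, 7 were tested and edgeR called 0, with a median log2 fold change of 0.19. At an unadjusted p under 0.05 the count was 1, RHOBTB3, at -0.30 (edgeR adjusted p = 0.0518). DESeq2 (-0.29) and limma voom (-0.31) called RHOBTB3 lower, as did edgeR without shACSS2 replicate 1 (-0.40), with library totals (-0.38), with the GC and length correction (-0.25) and with a filter of 1 CPM in 3 libraries (-0.31). LNPEP, which lies 15.7 kb from ERAP2 and encodes the third member of this aminopeptidase family, stood at -0.20 on the log2 scale (edgeR adjusted p = 0.365). Its value turned on single libraries: LNPEP was at -0.39 and called without shACSS2 replicate 1, at -0.040 without shACSS2 replicate 2, and at 0.042 with the GC and length correction. CAST, the calpain inhibitor gene 96.3 kb from ERAP2, stood at 0.19 (edgeR adjusted p = 0.195), and RIOK2 at 0.20 (adjusted p = 0.202). ELL2 was at 0.17 (edgeR adjusted p = 0.298), GLRX at 0.20 (adjusted p = 0.264) and RGMB at 0.23 (adjusted p = 0.276). With the GC and length correction CAST (0.19) and ELL2 (0.25) were called higher, whereas without shACSS2 replicate 1 they stood at 0.12 and 0.088 and were not called. With library totals CAST was at 0.11, ELL2 at 0.099, and RIOK2 and GLRX at 0.12 each, and RGMB was at 0.13 without NS replicate 3. PCSK1 and LIX1 had too few counts to be tested.

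**Figure D2:**
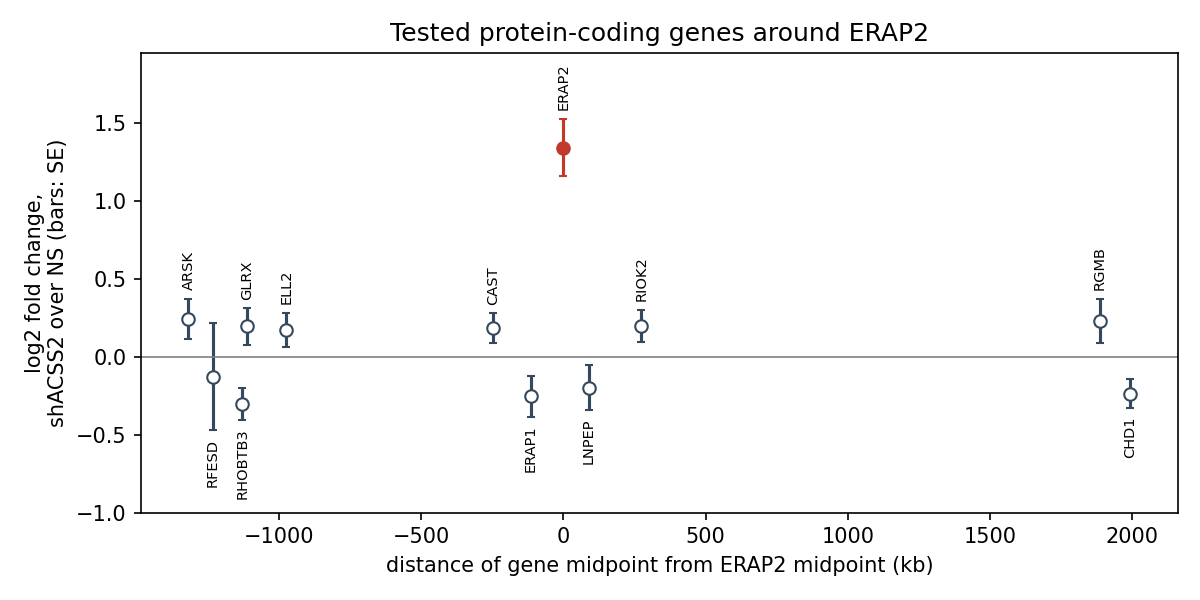
Log2 fold change, shACSS2 over NS (vertical axis, bars are SE), of the tested protein-coding genes around ERAP2 against the distance of each gene's midpoint from that of ERAP2 in kb (horizontal axis). Filled points were called at an adjusted p under 0.05 and open points were not. ERAP2, at 1.34, is the only filled point, with ERAP1 at -0.25 and LNPEP at -0.20 beside it.

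The transporter subunits parted. TAP1 (chr6:32845209-32853978, minus strand) and TAP2 (chr6:32821833-32838780, minus strand) encode the pair of proteins that form the peptide pump. TAP1 had 29.0, 35.5 and 30.4 CPM in shACSS2 replicates 1, 2 and 3, against 22.8, 25.3 and 22.0 CPM in the NS replicates. The TAP1 groups did not overlap. The log2 fold change of TAP1 was 0.44 (SE 0.118), and it was called higher. The TAP1 call was lost without shACSS2 replicate 2 (0.35), without NS replicate 1 (0.42) and without NS replicate 3 (0.40).

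TAP2 had 17.9, 16.0 and 18.6 CPM in shACSS2 replicates 1, 2 and 3, against 19.8, 19.5 and 18.4 CPM in the NS replicates. The TAP2 groups overlapped, and its log2 fold change of -0.13 (SE 0.120) was not called. It was -0.07 without shACSS2 replicate 2, -0.06 with the GC and length correction and -0.21 with library totals. The ratio of TAP1 to TAP2 counts within a library averaged 1.82 ± 0.339 in shACSS2 cells and 1.21 ± 0.0747 in NS cells, without overlap. TAP2 is uncertain, because 32.7% of its distinct windows of 50 bases also occur in another annotated gene, chiefly AL669918.1, which overlaps TAP2 on the same strand and had 0 counts in every library.

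TAPBP (chr6:33299694-33314387, minus strand) encodes tapasin, which holds the class I molecule beside the transporter during loading. It had 30.9, 33.9 and 34.8 CPM in shACSS2 replicates 1, 2 and 3, against 41.8, 40.5 and 38.1 CPM in the NS replicates. All shACSS2 libraries lay below all NS libraries for TAPBP. Its log2 fold change was -0.27 (SE 0.105), which was not called. TAPBP was called lower with library totals in place of TMM scaling (-0.34) and with the correction for GC and length (-0.25).

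B2M (chr15:44711487-44718877, plus strand) encodes the light chain common to all class I molecules. Its values were 314, 260 and 249 CPM in shACSS2 replicates 1, 2 and 3, against 160, 200 and 160 CPM in the NS replicates. The B2M groups did not overlap. The means were 275 ± 34.8 CPM in shACSS2 cells and 173 ± 23.0 CPM in NS cells, a log2 fold change of 0.66 (SE 0.115), or 1.58-fold, and B2M was called higher. As with ERAP2, shACSS2 replicate 1 was highest and GC was low (40.6%, in the longest annotated B2M transcript of any type). Without that library the log2 fold change of B2M was 0.56, and with the GC and length correction it was 0.54. The part of GC content in the B2M difference was not tested further.

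The 3 heavy chain genes, unlike B2M, were not called. HLA-B (chr6:31269491-31357188, minus strand) encodes a classical heavy chain that presents peptides to CD8 T cells. HLA-B had 75.4, 87.8 and 87.7 CPM in shACSS2 replicates 1, 2 and 3, against 76.9, 87.4 and 84.3 CPM in the NS replicates. These ranges overlapped almost fully, at a log2 fold change of 0.01 (SE 0.101), and the sign of the HLA-B value varied over the alternatives, from -0.11 to 0.08.

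HLA-C (chr6:31268749-31272130, minus strand), a classical heavy chain that natural killer cell receptors also read, had 312, 324 and 321 CPM in shACSS2 replicates 1, 2 and 3, against 288, 319 and 260 CPM in the NS replicates. The HLA-C groups overlapped, and the log2 fold change was 0.14 (SE 0.0961). Leaving out NS replicate 3 gave HLA-C a value of 0.07, and leaving out NS replicate 2 gave 0.22. The HLA-C value was 0.07 both with library totals and with the GC and length correction. HLA-E (chr6:30489467-30494205, plus strand), a non-classical heavy chain read mainly by natural killer cells, had 92.5, 110 and 105 CPM in shACSS2 cells, against 83.6, 89.0 and 94.9 CPM in NS cells. The HLA-E groups overlapped through shACSS2 replicate 1, and the log2 fold change of 0.20 (SE 0.0999) was not called. Without shACSS2 replicate 1 the HLA-E value was 0.27 and was called. It was 0.13 with library totals and 0.12 with the GC and length correction. Heavy-chain genes resemble each other: 2.35% of the 50-base windows of HLA-B, 6.34% of those of HLA-C and 5.13% of those of HLA-E recur in other genes. The sources used here do not give how reads that fit several genes were counted, so heavy-chain levels are uncertain to that extent.

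Within a library, B2M counts divided by the summed counts of HLA-B, HLA-C and HLA-E were 0.655, 0.499 and 0.486 in shACSS2 replicates 1, 2 and 3, against 0.358, 0.404 and 0.364 in the NS replicates. The groups did not overlap, and the means were 0.546 ± 0.0941 in shACSS2 cells and 0.376 ± 0.0250 in NS cells. HLA-C made up most of the counts of these 3 genes in both groups, with 63.2% ± 1.56 in shACSS2 cells and 62.6% ± 2.97 in NS cells.

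**Figure D3:**
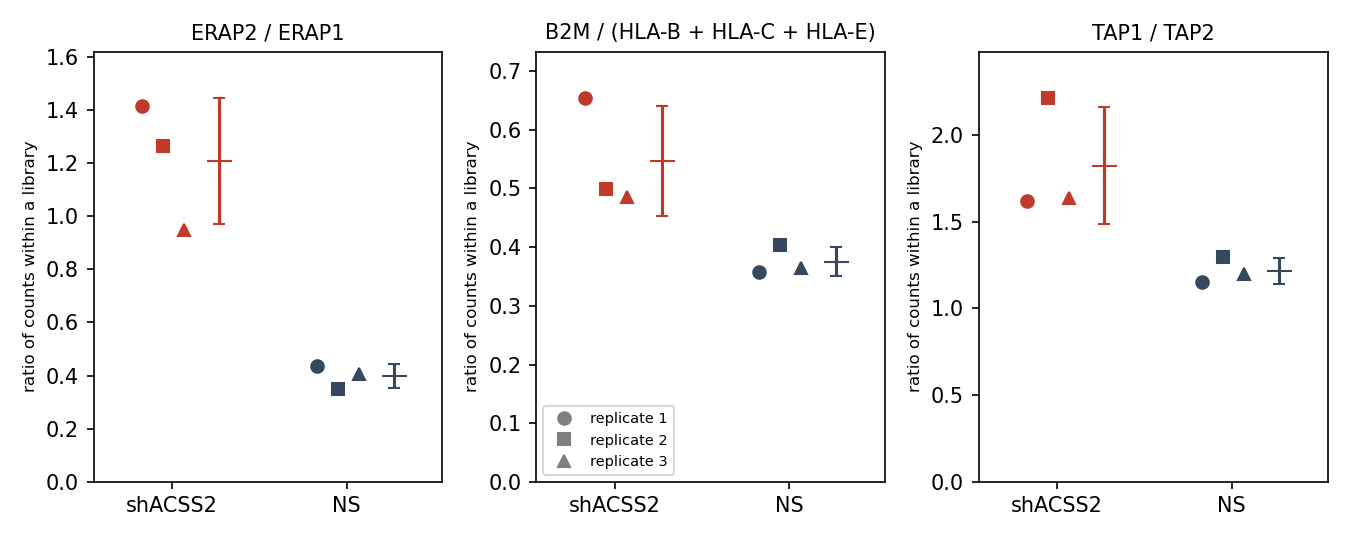
Ratios of counts within each library (vertical axes, from 0) for ERAP2 to ERAP1, B2M to the sum of HLA-B, HLA-C and HLA-E, and TAP1 to TAP2, with shACSS2 in red and NS in dark blue. Symbols mark replicates and bars give the mean ± SD of 3 libraries. In all 3 panels every shACSS2 library lies above every NS library.

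Per kilobase of the longest coding transcript, the levels of the 9 genes ran over about the same order in both groups. HLA-C was highest, with 205 CPM per kb in shACSS2 cells and 186 in NS cells, followed by B2M at 161 in shACSS2 cells and 102 in NS cells. HLA-B stood at 54.1 CPM per kb in shACSS2 cells and 53.6 in NS cells, and HLA-E at 39.3 CPM per kb in shACSS2 cells and 34.3 in NS cells. TAP1 lay above TAPBP in shACSS2 cells (10.7 against 8.84 CPM per kb), and below it in NS cells (7.89 against 10.7). TAP2 was at 3.08 CPM per kb in shACSS2 cells and 3.39 in NS cells. The aminopeptidases were lowest: ERAP2 had 2.29 and ERAP1 1.97 CPM per kb in shACSS2 cells, where their ranges overlapped. In NS cells ERAP2 had 0.903 and ERAP1 2.35 CPM per kb, and no neighbours in the order overlapped. With exons merged over all transcripts as the length, HLA-E stood above HLA-B in both groups and, in NS cells, also above B2M.

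The pathway around these genes was described with 9 further lists, 126 genes in all, of which 111 were tested. Of these, 21 were called higher (18.9%), 5 lower (4.50%) and 85 in neither direction. The shares over all genes tested, 7.48% higher and 9.64% lower, stand beside these counts and those of each list below. The median log2 fold change over the lists was 0.12. The lists were written with earlier results of these data known, so their counts are no independent evidence of a direction.

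Among class I and class I-like molecules, 10 of 14 were tested, 3 were called higher and 1 lower, with a median of 0.14. MICB and MICA, stress-induced ligands of the natural killer receptor NKG2D, rose. MICB averaged 31.6 ± 1.41 CPM in shACSS2 cells and 18.4 ± 2.27 CPM in NS cells (log2 fold change 0.78, SE 0.120, edgeR adjusted p = 0.000619). MICA averaged 25.2 ± 2.20 CPM in shACSS2 cells and 15.5 ± 1.35 CPM in NS cells (0.70, SE 0.124, edgeR adjusted p = 0.00181). ULBP1, a further NKG2D ligand, fell to 3.15 ± 0.755 CPM in shACSS2 cells, against 6.89 ± 0.102 CPM in NS cells (log2 fold change -1.12, SE 0.202, edgeR adjusted p = 0.00202). ULBP2 of the same family was called higher at 0.52 (edgeR adjusted p = 0.0369), and lost the call without any 1 of the 6 libraries, at 0.45 to 0.63. ULBP2 was not called either with library totals (0.45) or with the GC and length correction (0.32). HLA-G, a non-classical heavy chain, had 0 counts in every library.

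Of 15 genes of peptide loading and glycoprotein folding in the ER, all were tested, 6 were called higher and 0 lower by edgeR, with a median log2 fold change of 0.26. At an unadjusted p under 0.05 the counts were 8 higher and 0 lower, and DESeq2 and limma voom also called 0 lower. CALR (calreticulin) and PDIA3 (ERp57), which work with tapasin in the loading complex, both rose. CALR averaged 1003 ± 58.8 CPM in shACSS2 cells and 635 ± 75.0 CPM in NS cells (log2 fold change 0.66, SE 0.101, edgeR adjusted p = 0.000623). PDIA3 averaged 475 ± 13.4 CPM in shACSS2 cells and 311 ± 18.7 CPM in NS cells (0.61, SE 0.0900, edgeR adjusted p = 0.000471). HSPA5, the general ER chaperone BiP, rose by 0.44 (edgeR adjusted p = 0.00512). CANX (calnexin) rose by 0.43 (edgeR adjusted p = 0.00704) and lost its call without NS replicate 1 (0.39), where 3 of the 15 genes were called.

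Of 12 proteasome genes, 10 were tested, 5 were called higher and 0 lower by edgeR, with a median of 0.28. At an unadjusted p under 0.05 the counts were 6 higher and 0 lower, and DESeq2 and limma voom called 0 lower. The immunoproteasome subunit PSMB9, whose annotated start lies 488 bases from the nearest TAP1 start, was counted 27, 47 and 37 times in shACSS2 replicates 1, 2 and 3, against 14, 20 and 23 times in the NS replicates. Its log2 fold change was 1.17 (SE 0.329, edgeR adjusted p = 0.0238), and the call was lost without shACSS2 replicate 2 (0.95), NS replicate 1 (1.05) or NS replicate 3 (1.24). PSMB10, also of the immunoproteasome, had 0.798 CPM in shACSS2 cells and 0.794 CPM in NS cells (edgeR adjusted p = 0.990), and PSMB8 had 1 to 5 counts a library and was not tested. The constitutive subunits PSMB6 (0.41, edgeR adjusted p = 0.0117) and PSMB5 (0.35, adjusted p = 0.0287) and the activator subunit PSME2 (0.36, adjusted p = 0.0367) were also called higher. The count of 5 became 0 without NS replicate 3, 1 without NS replicate 1 or shACSS2 replicate 2, and 2 with library totals. PSME2 also lost its call without shACSS2 replicate 3 (0.37). With the GC and length correction PSMB5 was at 0.19 and PSMB6 at 0.24, both still called.

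Among 17 tested genes of 18 other peptide-trimming peptidases, 2 were called higher and 2 lower, with a median of 0.02. XPNPEP1, a cytosolic aminopeptidase acting before proline, fell to 35.2 ± 2.78 CPM in shACSS2 cells, against 69.5 ± 4.51 CPM in NS cells (log2 fold change -0.98, SE 0.105, edgeR adjusted p = 3.9e-05). TPP2, a large cytosolic peptidase, fell to 25.2 ± 2.89 CPM in shACSS2 cells, against 43.3 ± 5.17 CPM in NS cells (-0.78, SE 0.123, edgeR adjusted p = 0.000760). BLMH (0.41, edgeR adjusted p = 0.00750) and DPP9 (0.40, adjusted p = 0.0147) were called higher, and both lost the call without NS replicate 1 (0.41 for BLMH and 0.44 for DPP9). DPP9 also lost it without NS replicate 3 (0.32), and without shACSS2 replicate 1 the list had 5 called higher.

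ULBP1, XPNPEP1 and TPP2, which had the largest called falls among the listed genes, each hold one of a pair of overlapping short sequences in the 3′ untranslated region (UTR). The pair of 7-base sequences searched, ATGCTCA and TGCTCAA, was picked in earlier work from these same fold changes, so the counts are a description. The sites in XPNPEP1 and TPP2 and 1 of those in B2M are shown with the match in capitals (both sequences, overlapping, in B2M), from GENCODE release 29 transcripts.
XPNPEP1: tgatcaccttaATGCTCAtgagactatatt
TPP2: gggttttaacgTGCTCAActttaatttttt
B2M: ttaggaatctgATGCTCAAagaagttaaat

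Of the 111 tested list genes, 17 held either sequence, with 0 called higher by edgeR and 3 called lower. The other 94 held neither, with 21 called higher and 2 lower. Over all genes tested, 7.48% were called higher and 9.64% lower. The sequences were picked from these same fold changes, so nothing is read from this split. At an unadjusted p under 0.05, and likewise with DESeq2 and with limma voom, 0 of the 17 were higher and 4 lower. Either sequence stood in 16.4% of the 3′ UTRs of 50 bases or more, over 18780 genes. Of the 9 class I presentation genes, 2 held one, B2M, which was called higher, and TAPBP, which was not called. The part of the sequence in the falls of ULBP1, XPNPEP1 and TPP2 was not tested.

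Of 21 transcription factors that act on class I genes, 1 was called higher and 1 lower, with a median of 0.02. NLRC5, the class I transactivator, was counted 54, 66 and 64 times in shACSS2 replicates 1, 2 and 3, against 32, 51 and 37 times in the NS replicates. It was called higher, at 0.82 on the log2 scale (SE 0.248, edgeR adjusted p = 0.0332). DESeq2 did not call NLRC5 (0.83), and edgeR lost the call without shACSS2 replicate 2 (0.75) or 3 (0.84) or NS replicate 1 (0.74) or 3 (0.69). STAT2, part of the factor that answers type I interferon, fell by 0.51 on the log2 scale to 29.1 ± 3.16 CPM in shACSS2 cells, against 41.4 ± 4.72 CPM in NS cells (edgeR adjusted p = 0.0104). Its call was lost without NS replicate 1 (-0.47) or 3 (-0.46). IRF1 (0.25, edgeR adjusted p = 0.354), which interferon gamma induces, was not called. Without shACSS2 replicate 1, 2 of the factors were called higher and 4 lower.

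Interferon receptors and their signalling genes had 0 called of 11 tested by edgeR, with 2 higher at an unadjusted p under 0.05 and 1 called by DESeq2, and a median of 0.10. These were IFNGR1, a receptor chain for interferon gamma (log2 fold change 0.31, SE 0.107, edgeR adjusted p = 0.0552), which DESeq2 called at 0.32, and the inhibitor SOCS1 (0.95, SE 0.397, adjusted p = 0.107). Without NS replicate 2 IFNGR1 was called at 0.39, and with the GC and length correction it stood at 0.20. IFNG had 0 counts in every library and IFNB1 at most 1.

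Of 12 negative regulators of class I surface level, 11 were tested, 2 were called higher and 1 lower, with a median of 0.10. SUSD6, which guides class I molecules to degradation, was called higher at 0.50 on the log2 scale (edgeR adjusted p = 0.0119). EZH2, the methyltransferase of Polycomb repressive complex 2, was called higher at 0.38 (edgeR adjusted p = 0.0116), and its partner SUZ12 lower at -0.33 (adjusted p = 0.0283). All 3 calls were lost without NS replicate 1, at 0.46 for SUSD6, 0.37 for EZH2 and -0.32 for SUZ12. SUSD6 also lost its call without shACSS2 replicate 3 (0.43). SUZ12 was not called without shACSS2 replicate 2 (-0.29) or 3 (-0.31) or NS replicate 3 (-0.30).

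Of 13 MHC class II genes, which present peptides to CD4 T cells, 10 were tested, 2 were called higher and 0 lower by edgeR, with a median of 0.33. At an unadjusted p under 0.05 the counts were 4 higher and 0 lower. DESeq2 called 1 higher and limma voom 2, and both called 0 lower. HLA-DQA1 averaged 1.67 ± 0.165 CPM in shACSS2 cells and 0.664 ± 0.106 CPM in NS cells (log2 fold change 1.31, edgeR adjusted p = 0.0178). HLA-DMB, which edits the peptides of class II molecules, averaged 5.88 ± 1.34 CPM in shACSS2 cells and 2.97 ± 0.769 CPM in NS cells (0.99, edgeR adjusted p = 0.0110). Both calls were lost without NS replicate 1 (1.27 for HLA-DQA1 and 0.89 for HLA-DMB) and without NS replicate 3 (1.45 for HLA-DQA1 and 0.86 for HLA-DMB), and HLA-DQA1 was also lost without shACSS2 replicate 3 (1.23) or NS replicate 2 (1.22). Among 8 markers of antigen-presenting and other blood cells, 6 stayed below 1 CPM in every library, and PTPRC, the pan-leukocyte marker, was at most 0.0960 CPM. Their summed level was 3.26 to 5.46 CPM in shACSS2 cells and 3.75 to 4.18 CPM in NS cells.

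Among 11894 genes that averaged 5 CPM or more, the profile most like that of ERAP2 over the 6 libraries was that of MSRB3, a methionine sulfoxide reductase (Pearson r = 0.997 of log2 CPM). It was followed by RAB30, a small GTPase of the Golgi (r = 0.991), METTL16, an RNA methyltransferase (r = 0.991), BCL2L11, which encodes the cell death protein BIM (r = 0.988), and MFAP1, a splicing factor (r = 0.988). The libraries fall into their 2 groups and share depth and GC differences, and 19 genes ordered the 6 libraries exactly as ERAP2 did, so these likenesses are a description only. RAB30 averaged 12.3 ± 1.92 CPM in shACSS2 cells and 6.56 ± 0.909 CPM in NS cells. Its log2 fold change was 0.91, against 0.56 for MSRB3, 0.35 for BCL2L11, 0.27 for METTL16 and 0.19 for MFAP1. In the main fit METTL16 (edgeR adjusted p = 0.0536) and MFAP1 (edgeR adjusted p = 0.190) were not called, though DESeq2 called METTL16 (0.28). BCL2L11 was called, but lost the call in 5 of the 6 fits that left out 1 library.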

How the data were processed

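RNA of 6 libraries, 3 labelled shACSS2 and 3 labelled NS, was sequenced after library preparation with a SMARTer mRNA-seq kit, per the labels' protocols. The authors deposited raw read counts per gene for each library. The submitters' processing notes name fastp, HISAT2 2.0.5, featureCounts 1.5.0-p3, DESeq2 (version given as 4.3.1) and the build hg19. Not given in the sources used here were the annotation, the strand setting and the handling of reads that fit several genes. Each can change counts of overlapping or similar genes.

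All 58735 identifiers matched GENCODE release 29 on GRCh38, from which positions, lengths and overlaps were taken. Promoter sequences came from a RefSeq table on GRCh38.p14, which held windows for 8 of the 9 genes.

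Features were filtered with filterByExpr, scaled by TMM and tested with edgeR 4.0.16 (robust quasi-likelihood test, group as the only term) in R 4.3.3, with Benjamini-Hochberg adjustment over 16210 features. A gene was called at an adjusted p under 0.05. CPM values are TMM-scaled, except marker levels, which use library totals. The pipeline was tested on simulated data. Alternatives were DESeq2 1.42.0, limma voom 3.58.1, other scalings and filters, a stricter threshold, a replicate block, leaving out each library, and, added after seeing the data, a correction for GC content and length.

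The 9 genes and all lists were chosen with earlier results of these data known. The text names those 9, ACSS2, up to 4 called genes per list with the largest change and at least 1 CPM (the 2 with the smallest p where 0 were called), all tested neighbours of ERAP2 and the 5 genes most like it. HLA-G, PSMB8, PSMB10, IRF1, IFNG, IFNB1, PCSK1 and LIX1 were added after their values were seen, and some listed genes are not reported here by name. Replicates of a group differed by more than sampling noise (chi-square per degree of freedom 4.28 to 17.3). Same-numbered libraries of the groups correlated at -0.043, -0.066 and 0.11 in their deviations. No pairing by number was seen, but with so few libraries these values cannot exclude that same-numbered libraries were prepared together.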

Additional observations from a re-analysis of the deposited data

How the results depend on the processing

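The direction of ERAP2 (log2 fold change 1.18 to 1.49), B2M (0.54 to 0.77), TAP1, TAPBP, ERAP1, TAP2, HLA-C and HLA-E was kept under all 15 alternatives, and ERAP2 and B2M also kept their calls. The stricter threshold is among the 15 but reuses the main fit, so a direction could not change there. HLA-B varied from -0.11 to 0.08 and was never called. Leaving out each library in turn gave TAP1 0.35 to 0.50 and HLA-E 0.15 to 0.27, and TAP1 (0.44) was not called at an adjusted p under 0.01. TAPBP was called lower with library totals (-0.34) and with the GC and length correction (-0.25), so that 1 of the 9 genes was lower under each. Library totals shifted the median of all genes by -0.07 and called 734 genes higher and 2108 lower, against 1213 and 1563 with TMM. At an adjusted p under 0.01, 330 were higher and 680 lower, and the correction gave 2066 higher. Leaving out 1 library gave 310 to 1837 genes higher and 708 to 2094 lower, with the lowest counts without NS replicate 1 and the highest number higher without shACSS2 replicate 1. Over the pathway lists, calls were 7 higher and 3 lower at an adjusted p under 0.01, 11 lower with the correction, and 6 to 26 higher and 3 to 10 lower with 1 library left out. The causes were not tested. A fit with the replicate number as a block gave ERAP2 1.33 and changed no call among the 9 genes. Genes with few counts, such as PSMB9, PSMB8 and the class II genes, are limited by depth, and a difference between groups was not detectable for PSMB8 at 1 to 5 counts a library.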
